A study of Arabidopsis thaliana with 24 samples.

Results

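Of the 33602 genes counted in Arabidopsis thaliana whole plants, 192 had more transcript in both of the mutants studied, lsm4 and lsm5, than in the wild type of the same accession. They were selected on the counts themselves. Each gene's count was divided by its library's total to give counts per 1000000 counts (CPM), and a gene was kept when its lowest mutant CPM was at least 1.3 times its highest wild-type CPM in both comparisons. The mean mutant CPM had to be at least 2 in each, and the lsm4 mean had to stay under 5 times the wild-type mean. These values chose the genes, so the differences between each mutant and its wild type are described below and not tested.

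The study sequenced polyA-selected RNA from 4 groups with 3 replicates each, every replicate as 2 libraries whose counts the deposited tables give as 1 column, called a library here. WT Col, the Columbia wild type, and the lsm4 mutant (lsm4-1, in Col) grew on Murashige and Skoog agarose medium. WT C24, wild-type plants of the C24 accession, and lsm5 (lsm5/sad1, in C24) grew on soil. All had 4 days of stratification and grew at 22 °C in continuous light. The protocol dates the harvest of the mutants to day 15 for lsm4-1 and to day 30, before bolting, for sad1/lsm5. The series' design text gives 1 growth time for all, so the age of the plants is uncertain. Accession, medium and, by the protocol, age go together, and each mutant is 1 allele. Nothing in the labels says that the replicates were grown separately, so the spread between them may be technical.

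LSM proteins form rings that bind the 3′ ends of RNAs. The nuclear LSM2-8 ring holds U6 small nuclear RNA, a core component of the spliceosome, and the cytoplasmic LSM1-7 ring takes part in removing the cap of mRNAs that are to be degraded. LSM4 and LSM5 are subunits of both rings, so a mutation in either can touch the splicing and the decay of mRNA. In Arabidopsis, sad1 was found as a mutant sensitive to abscisic acid and drought.

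Total gene counts ran from 9402839 to 52218346 per library. LSM4 itself was higher in lsm4 (280 to 409 CPM) than in WT Col (45.7 to 68.3 CPM), and LSM5 lay at 9.70 to 20.01 CPM in lsm5 and 10.8 to 20.6 CPM in WT C24, so gene counts check neither label and the labels were taken as given. The libraries WT C24 2 and lsm5 3 stood apart from the others of their groups, as did WT Col 1 and lsm4 2, in the factors of the trimmed mean of M-values (TMM), which ran from 0.886 for WT C24 2 to 1.196 for lsm5 3 in the C24 comparison. Markers of roots summed to 220 to 272 CPM in WT Col, 172 to 187 CPM in lsm4, 62.8 to 73.6 CPM in WT C24 and 67.0 to 80.0 CPM in lsm5, and the root hair genes RHD6 and EXP7 were at 0 in every C24 library, although the label is whole plants. Of the 9 root markers 5 were called lower and 1, WOX5, higher in lsm4, where 4458 of all 20793 tested genes were called in either direction. Flower markers summed to 0.824 to 4.19 CPM in WT C24 and 7.29 to 9.02 CPM in lsm5, where AP1 and AP3 were called higher. Their part in the results was not tested. In whole plants, more cells of a type and more RNA per cell cannot be told apart.

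The ratio and level limits were met by 2317 genes in the lsm4 comparison taken by itself, 13.7% of the 16924 with a mean lsm4 CPM of at least 2, and by 871 genes in that of lsm5, 5.42% of 16064. Both were met by 277 genes, and 192 of those lay under the limit of 5 times in lsm4. The same rule turned round, for genes lower in both mutants, found 51. The 192 genes lie on all 5 chromosomes (51, 26, 44, 27 and 44 on chromosomes 1 to 5) and on no organelle genome. In the libraries of WT Col they took 0.366% to 0.389% of all counts and in lsm4 0.789% to 0.881%. In WT C24 they took 0.401% to 0.441% and in lsm5 0.823% to 0.876%. As a set they thus held a low share of the transcripts in every library, with both mutants above both wild types.

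**Figure D1:**
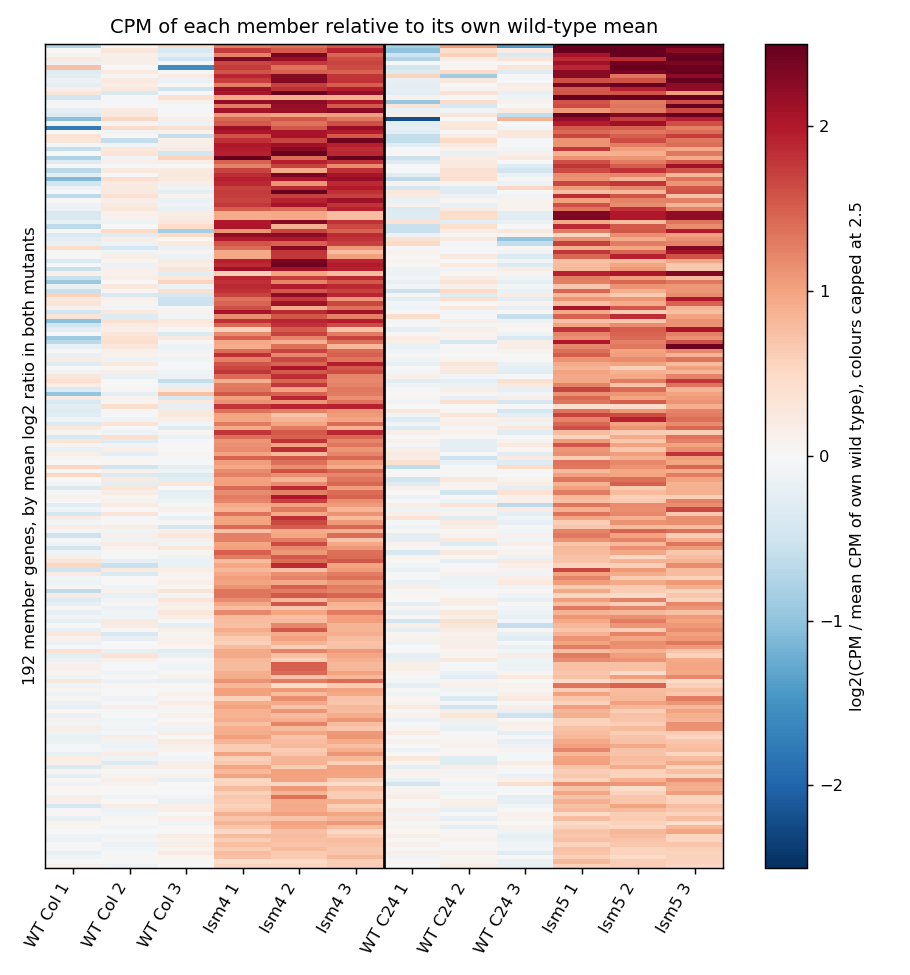
Heat map of the 192 genes (rows, ordered by their mean log2 ratio in both mutants) in the 12 libraries (columns), coloured by log2 of the CPM over the mean CPM of the same comparison's wild type. The mutant libraries are red throughout because the genes were selected so, and their median ratio to the wild-type mean lies at 2.18 to 2.47 in the lsm4 libraries and 2.02 to 2.101 in the lsm5 libraries.

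The ratio of mean CPM ran from 1.43 to 4.90 in lsm4 (median 2.36) and from 1.42 to 10.4 in lsm5 (median 2.08). It was 2 or more for 131 genes in lsm4, for 109 in lsm5 and for 89 in both. It was larger in lsm4 for 120 genes and larger in lsm5 for 72. Across the 192 genes the fitted log2 changes in the mutants had a Pearson correlation of 0.249, which the selection on both of them shapes and which is given as a description.

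In the edgeR quasi-likelihood fit over all genes, 145 of the 192 were called higher in lsm4 (75.5%) where 10.7% of all 20793 tested genes were. In lsm5, 53 of the 192 were called (27.6%) beside 1.51% of 19819 genes. All 192 passed the filter on low counts, 40 were called in both fits and 34 in neither. The selection used these contrasts, so nothing is read from these shares. The counts also rest on single libraries: the lsm4 count was 90 without lsm4 1 and 96 without lsm4 3. The lsm5 count was 3 without WT C24 1, 4 without WT C24 3, 10 without lsm5 1, 3 without lsm5 2 and 137 without lsm5 3. It was 187 without WT C24 2 and lsm5 3 together. The authors' deposited tables of genes higher in the mutants hold 170 of the 192 among 3254 genes for lsm4 and 142 among 1048 genes for lsm5, and their tables of lower genes hold 0. Those tables reach an FDR of 0.104 for lsm4 and 0.105 for lsm5, a wider limit than the adjusted p of 0.05 used here. They come from the same libraries as the selection, so nothing is read from this overlap either.

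**Figure D2:**
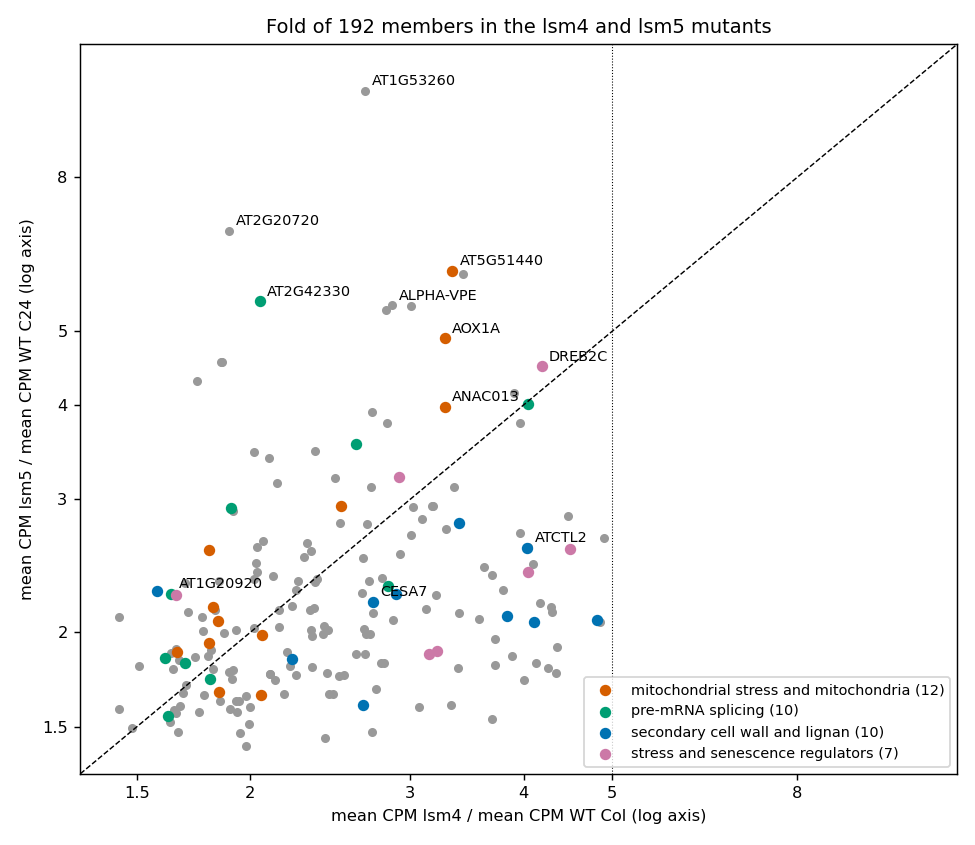
Ratio of mean CPM in lsm4 over WT Col (horizontal) against lsm5 over WT C24 (vertical), both on log axes, for the 192 genes, with 4 functional groups in colour. The dashed line marks equal ratios and the dotted line the limit of 5 in lsm4. Secondary cell wall genes (blue) lie below the dashed line for 9 of 10, and mitochondrial genes (orange) above it for 9 of 12. Of all 192, 120 lie below it and 72 above, and the groups were formed after the values were seen.

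A functional role could be assigned to 69 of the 192 from textbook knowledge, after their values had been seen. A group of 12 encodes mitochondrial proteins or their regulators, and its median ratio was 1.95 in lsm4 and 2.11 in lsm5. Alternative oxidase, encoded by AOX1A, takes electrons from ubiquinol directly to oxygen and is the standard reporter of mitochondrial dysfunction signalling in Arabidopsis. The transcription factor ANAC013 activates such genes through a short promoter element, the mitochondrial dysfunction motif.

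AOX1A stood at 31.9, 39.5 and 34.9 CPM in WT Col, at 112, 121 and 115 CPM in lsm4, at 54.4, 55.2 and 52.2 CPM in WT C24 and at 230, 288 and 275 CPM in lsm5. Every mutant library was more than 2 times above every library of its wild type, a ratio of the means of 3.27 in lsm4 and 4.90 in lsm5, and with CPM by total counts AOX1A had the widest gap of all 192 between its lowest mutant and highest wild-type library. After TMM scaling DREB2C and tic20-IV had wider gaps, with smallest ratios of 2.51 and 2.37 beside 2.32 for AOX1A. ANAC013 stood at 5.96, 5.80 and 5.66 CPM in WT Col, at 14.1, 26.1 and 16.8 CPM in lsm4, at 2.82, 1.69 and 2.23 CPM in WT C24 and at 7.01, 5.69 and 14.2 CPM in lsm5. Within each mutant 1 library was well above the others, lsm4 2 and lsm5 3, which are libraries that stand apart by their scaling factors. AT5G51440, a small heat shock protein of the HSP20 family, stood at 3.62, 4.37 and 2.75 CPM in WT Col, at 12.0, 10.4 and 13.4 CPM in lsm4, at 1.59, 4.33 and 3.64 CPM in WT C24 and at 19.6, 22.6 and 15.3 CPM in lsm5. The ratio was 3.34 in lsm4 and 6.02 in lsm5.

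The abundant chaperone mtHsc70-1, which pulls proteins into the mitochondrial matrix and folds them, stood at 140, 136 and 165 CPM in WT Col, at 245, 278 and 271 CPM in lsm4, at 121, 121 and 112 CPM in WT C24 and at 281, 327 and 307 CPM in lsm5. LON1, a matrix protease, had a ratio of 1.66 in lsm4 and 1.88 in lsm5. The remaining mitochondrial genes were a band 7 membrane protein (AT4G27585), a calcium uniporter (AT2G23790), the carriers APC1 and AT3G53940, the copper chaperone HCC1, cytochrome c (CYTC-2) and ornithine aminotransferase (DELTA-OAT). The lowest ratios of the group were 1.66 in lsm4, of LON1, and 1.65 in lsm5, of DELTA-OAT.

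**Figure D3:**
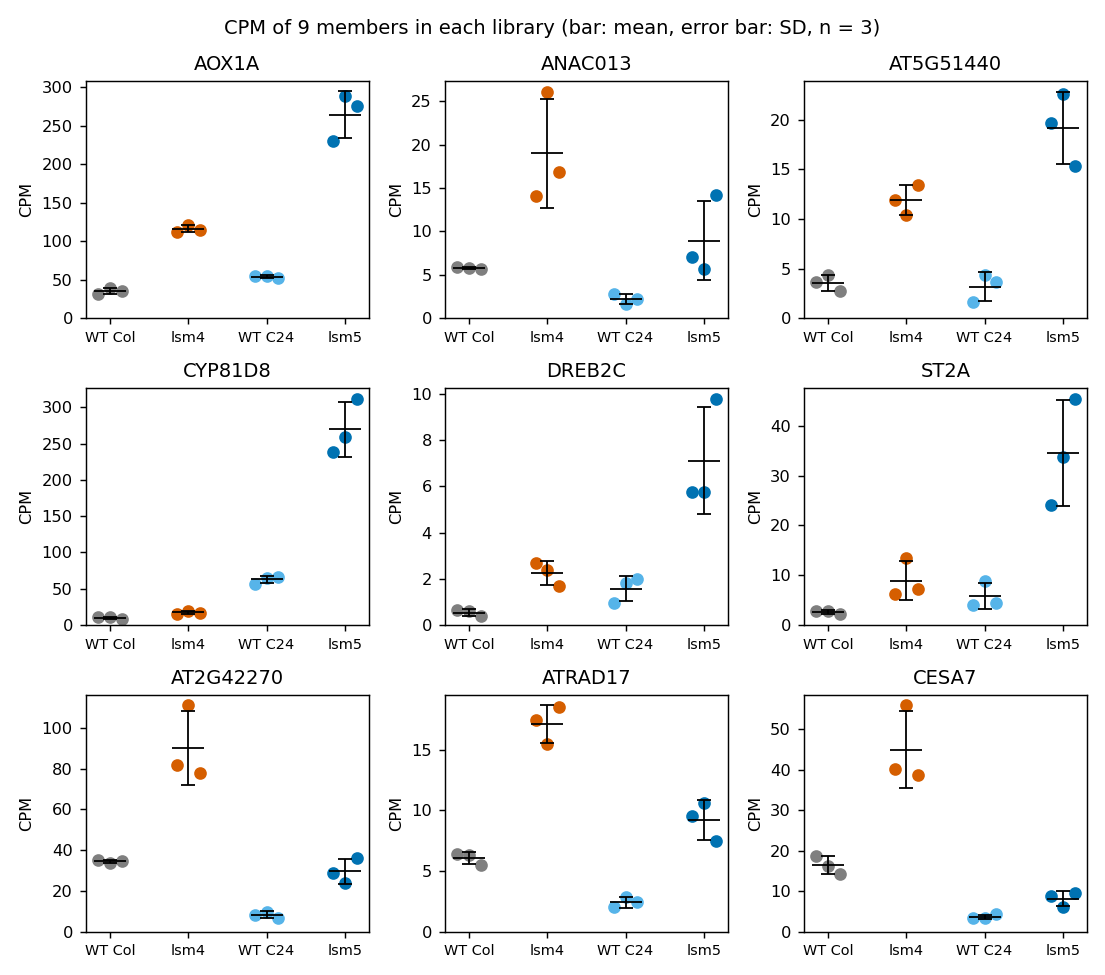
CPM of 9 of the 192 genes in each library (points), with the mean (bar) and SD (error bar, n = 3) of each group. AOX1A reaches 230 to 288 CPM in lsm5 and 112 to 121 CPM in lsm4, and in CYP81D8 the lsm4 libraries (15.2 to 19.7 CPM) lie below those of WT C24 (56.9 to 66.3 CPM).

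The mitochondrial dysfunction motif was looked for in 1 form only, CTTG and CAAG with 5 bases between them, which reads the same on both strands. The window ran from 250 bases before to 50 after the gene start of the 190 genes that RefSeq lists. This form was found in 6 of them (3.16%), beside 0.90% of all 32834 genes and 0.63% of the tested genes in the same window. With 150 bases before the start the shares were 1.58% and 0.47%, and with 1000 bases 5.26% and 2.76%. The genes were AOX1A, CYP81D8, AT3G10320, AT3G45730, AT1G24095 and EXPA14. This motif was added after the data had been seen, and a match is a description of the letters and not a binding site. The 250 bases before the gene start of 4 of them are printed because they hold AOX1A and the motif of its known regulator ANAC013 together with genes of other functions. The sequences are from RefSeq, TAIR10.1, read 5′ to 3′ on the strand of the gene, with the motif in capitals.
AOX1A, chr3:7906541-7906790, plus strand: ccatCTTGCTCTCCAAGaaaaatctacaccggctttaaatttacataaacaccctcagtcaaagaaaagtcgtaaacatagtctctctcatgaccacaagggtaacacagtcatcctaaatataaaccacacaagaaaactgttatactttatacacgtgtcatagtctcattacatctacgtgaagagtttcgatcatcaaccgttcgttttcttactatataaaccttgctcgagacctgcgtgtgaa
CYP81D8, chr4:17571705-17571954, minus strand: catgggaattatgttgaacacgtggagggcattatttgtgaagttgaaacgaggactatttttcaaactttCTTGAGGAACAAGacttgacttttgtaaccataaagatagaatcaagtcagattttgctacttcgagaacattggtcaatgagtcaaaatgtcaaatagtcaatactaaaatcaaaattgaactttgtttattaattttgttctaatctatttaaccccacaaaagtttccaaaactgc
AT3G10320, chr3:3197347-3197596, minus strand: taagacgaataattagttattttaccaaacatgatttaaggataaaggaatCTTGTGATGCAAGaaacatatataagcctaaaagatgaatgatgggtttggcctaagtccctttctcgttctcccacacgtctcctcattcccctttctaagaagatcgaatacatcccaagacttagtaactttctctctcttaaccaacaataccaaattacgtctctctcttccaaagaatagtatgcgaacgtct
AT3G45730, chr3:16789730-16789979, plus strand: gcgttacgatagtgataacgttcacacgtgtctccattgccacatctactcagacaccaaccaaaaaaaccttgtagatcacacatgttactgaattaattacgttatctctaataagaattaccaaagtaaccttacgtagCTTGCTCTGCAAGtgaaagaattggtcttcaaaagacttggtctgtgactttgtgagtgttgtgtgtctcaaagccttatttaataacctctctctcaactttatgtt

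The motif begins 246 bases before the start of AOX1A, 179 before CYP81D8, 199 before AT3G10320 and 108 before AT3G45730. CYP81D8, a cytochrome P450 of many stress responses, stood at 10.8, 10.6 and 8.22 CPM in WT Col, at 15.2, 19.7 and 17.0 CPM in lsm4, at 56.9, 65.2 and 66.3 CPM in WT C24 and at 238, 259 and 312 CPM in lsm5. Its ratio was 1.75 in lsm4 and 4.29 in lsm5. AT3G10320, a glycosyltransferase of family 61, stood at 1.06, 1.17 and 0.688 CPM in WT Col, at 4.31, 3.46 and 3.78 CPM in lsm4, at 2.24, 2.74 and 2.86 CPM in WT C24 and at 7.58, 9.99 and 12.1 CPM in lsm5. In this gene the ratios were close, 3.96 and 3.78, while CYP81D8 differed more between the wild types than between WT Col and lsm4.

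AOX1A, ANAC013, CYP81D8 and DTX1, an efflux transporter of the MATE family, belong to a list of 27 detoxification and oxidative stress genes. Of that list 9 genes were called higher and 6 lower in lsm4, and 9 of the 26 tested were called higher in lsm5 and 0 lower. Over all tested genes, 10.7% were called higher in lsm4 and 1.51% in lsm5. The list was chosen with earlier results of these data known, so these counts are a description. The median log2 change of the list was 0.22 in lsm4 and 0.80 in lsm5, beside 0.02 and 0.007 over all tested genes. List genes outside the 192 include UPOX, a mitochondrial oxidative stress gene, which rose from 3.80 ± 0.212 to 20.7 ± 2.85 CPM in lsm4 (SD, n = 3) and from 2.41 ± 0.737 to 10.8 ± 2.38 CPM in lsm5. DTX3, a neighbour of DTX1 in the MATE family, rose from 2.68 ± 0.229 to 84.6 ± 16.4 CPM in lsm4 and from 25.9 ± 5.87 to 303 ± 78.9 CPM in lsm5. The adjusted p of DTX3 was 2.7e-05 in lsm4 and 0.0029 in lsm5 (edgeR). Both genes lay over the limit of 5 times in lsm4. The glutathione transferases GSTF2, GSTF8, GSTU19 and GSTU24 were among the genes called lower in lsm4.

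A group of 10 encodes factors of pre-mRNA splicing, with a median ratio of 1.85 in lsm4 and 2.28 in lsm5. In the spliceosome, U6 enters with U4 and U5 as a tri-snRNP, where Prp3 binds the paired U4 and U6, Brr2 unwinds them and Prp8 forms the scaffold of the catalytic core. AT2G42270, a Brr2 helicase (BRR2B), stood at 35.4, 33.7 and 34.5 CPM in WT Col, at 81.9, 111 and 77.8 CPM in lsm4, at 8.41, 9.95 and 6.70 CPM in WT C24 and at 28.9, 23.9 and 36.1 CPM in lsm5. Every lsm5 library was near the WT Col libraries, since WT C24 lay lower than WT Col. AT4G38780, a Prp8 copy (PRP8B), stood at 1.81, 2.202 and 2.48 CPM in WT Col, at 8.07, 10.6 and 7.503 CPM in lsm4, at 1.18, 0.430 and 0.783 CPM in WT C24 and at 3.81, 2.01 and 3.76 CPM in lsm5. Its ratios of 4.04 and 4.00 were the largest of the splicing genes in lsm4 and second to AT2G42330 in lsm5. AT1G28060, annotated as pre-mRNA-splicing factor 3, stood at 54.1, 63.4 and 77.6 CPM in WT Col, at 129, 107 and 136 CPM in lsm4, at 38.2, 50.7 and 34.9 CPM in WT C24 and at 133, 128 and 101 CPM in lsm5.

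The main copies of Brr2 and Prp8 did not belong to the 192. Per kilobase of exon, BRR2B lay at 4.88 to 5.13 CPM in WT Col and averaged 13.1 in lsm4, 1.21 in WT C24 and 4.29 in lsm5, while its near copy BRR2A averaged 25.99, 31.0, 18.5 and 29.7. PRP8B averaged 0.303, 1.22, 0.112 and 0.447 CPM per kilobase in that order, while PRP8A averaged 23.5, 35.3, 25.3 and 35.4. In these pairs the gene among the 192 is thus the lower copy in every group, and reads shared between copies may have been split in the authors' counting. The member was likewise the lower copy of cytochrome c, acetyl-CoA carboxylase, CDC48, CSN6 and the chitinase-like proteins, whereas mtHsc70-1 was above MTHSC70-2, at 60.9 against 34.0 CPM per kilobase in WT Col. No partner gene was called in either mutant in the edgeR fit, beside 10.7% and 1.51% of all tested genes called higher in lsm4 and lsm5. With so few partners, all outside the 192, nothing is read from this. Their fitted changes ran from 0.737 to 1.41 times in lsm4 and from 0.785 to 1.53 times in lsm5. The difference between copies was not tested.

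AT2G42330, a protein with a tuftelin-interacting domain, stood at 8.83, 13.6 and 11.8 CPM in WT Col, at 23.7, 23.0 and 23.5 CPM in lsm4, at 4.94, 5.54 and 2.90 CPM in WT C24 and at 24.8, 22.1 and 26.5 CPM in lsm5. The mutant libraries of both backgrounds lay close together, while the wild types did not, so the ratio was 2.05 in lsm4 and 5.48 in lsm5. The other splicing genes were AT1G20920, a DEAD-box helicase, RRC1, SMU2, a CC1-like factor (AT5G09880), AT2G44200 and AT1G14640. None of the lists of LSM proteins, SR proteins and RNA binders, or decapping and decay genes held any of the 192. A further 6 genes act elsewhere on RNA, with a median ratio of 2.05 in lsm4 and 1.81 in lsm5, among them the poly(A)-binding protein PAB5, tRNase Z3 (TRZ3), an asparaginyl-tRNA synthetase (NS2) and an eIF3 subunit (AT1G66070).

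A group of 10 genes serves the secondary cell wall and lignans, the thick wall of xylem and fibres. Its median ratio was 3.14 in lsm4 and 2.15 in lsm5, and 9 of the 10 had the larger ratio in lsm4. CESA7, a cellulose synthase of the secondary wall, stood at 18.8, 16.3 and 14.3 CPM in WT Col, at 40.2, 55.9 and 38.8 CPM in lsm4, at 3.41, 3.36 and 4.35 CPM in WT C24 and at 8.78, 6.09 and 9.54 CPM in lsm5. Every lsm5 library was below every WT Col library. CTL2, a chitinase-like protein, stood at 15.1, 14.1 and 16.4 CPM in WT Col, at 61.5, 63.0 and 59.4 CPM in lsm4, at 2.65, 3.09 and 3.84 CPM in WT C24 and at 8.47, 7.95 and 8.38 CPM in lsm5. FRA8 and PGSIP1, which build xylan, had ratios of 3.39 and 3.83 in lsm4 and of 2.79 and 2.104 in lsm5. The other genes of the group were ANAC073, a NAC factor of the secondary wall network, FRA3, DOF5.6, IQD13 and the pinoresinol reductases PRR1 and PRR2.

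CESA7 is also 1 of 6 markers of vascular tissue. The summed level of these markers was 304 to 355 CPM in WT Col, 761 to 917 CPM in lsm4, 103 to 122 CPM in WT C24 and 235 to 285 CPM in lsm5. In lsm4, CESA8, CESA7, XCP1 and VND7 were called higher, and in lsm5 SUC2, a phloem sucrose transporter, beside 10.7% and 1.51% of all tested genes. No marker was at 0. The part of vascular tissue in the wall genes' difference was not tested.

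A group of 4 genes acts in DNA replication and repair. ATRAD17, a checkpoint clamp loader, stood at 6.38, 6.32 and 5.47 CPM in WT Col, at 17.44, 15.4 and 18.5 CPM in lsm4, at 2.00, 2.88 and 2.43 CPM in WT C24 and at 9.55, 10.6 and 7.45 CPM in lsm5. Its ratios were 2.83 and 3.78. CYCB1;1, a mitotic cyclin that also rises after DNA damage, stood at 3.30, 2.97 and 3.36 CPM in WT Col, at 6.15, 11.1 and 5.45 CPM in lsm4, at 3.00, 2.74 and 2.62 CPM in WT C24 and at 9.58, 7.61 and 11.8 CPM in lsm5. All 6 wild-type libraries lay between 2.62 and 3.36 CPM. MCM5, a subunit of the replicative helicase, had ratios of 2.67 and 2.02, and AT5G49110, a Fanconi anemia group I-like protein, 2.78 and 1.82. Of the list of 12 DNA damage genes, which holds CYCB1;1, 4 were called higher in lsm4 and 5 in lsm5, and 0 lower. The other genes called in both were GMI1, ANAC044 and ANAC085, which lay over the limit of 5 times in lsm4. Of the 16 genes of replication and the cell cycle, 3 were called higher in lsm4 and 1, MCM5, in lsm5. Beside both lists stand 10.7% of all tested genes called higher in lsm4 and 1.51% in lsm5.

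Transcription factors of stress and senescence formed a group of 7 with NYE1, a regulator of chlorophyll breakdown, and had a median ratio of 3.21 in lsm4 and 2.40 in lsm5. DREB2C, an ERF factor of drought and heat responses, stood at 0.638, 0.594 and 0.382 CPM in WT Col, at 2.70, 2.38 and 1.67 CPM in lsm4, at 0.941, 1.80 and 2.00 CPM in WT C24 and at 5.77, 5.77 and 9.79 CPM in lsm5. It is a scarce transcript with ratios of 4.19 and 4.50. ANAC087, a NAC factor linked to programmed cell death, stood at 3.83, 5.32 and 4.47 CPM in WT Col, at 19.3, 20.3 and 21.6 CPM in lsm4, at 8.59, 9.22 and 11.7 CPM in WT C24 and at 20.7, 24.03 and 31.3 CPM in lsm5. CRF6, a cytokinin response factor, had ratios of 4.05 and 2.40, ANAC046 of 3.21 and 1.89, and NYE1 of 3.15 and 1.87. Of the 17 genes of senescence and carbon starvation, 6 of 16 tested were called higher in lsm4 and 1 of 17, DIN2, in lsm5. All 17 were called higher in WT C24 than in WT Col. The shares over all tested genes were 10.7%, 1.51% and 19.5%. NYE1 was thus the list's member among the 192 while SAG12, SAG14 and NAP were called in neither mutant or, for SAG12, not tested in lsm4.

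A group of 11 genes encodes enzymes, transporters and defence proteins, with a median ratio of 2.12 in lsm4 and 2.38 in lsm5. CYP71A13, which makes a precursor of the phytoalexin camalexin, stood at 18.5, 20.9 and 16.9 CPM in WT Col, at 36.6, 64.3 and 38.4 CPM in lsm4, at 124, 139 and 94.1 CPM in WT C24 and at 323, 459 and 360 CPM in lsm5. The lsm4 libraries stayed below those of WT C24. ST2A, a sulfotransferase of hydroxyjasmonate, stood at 2.77, 2.83 and 2.22 CPM in WT Col, at 6.18, 13.4 and 7.19 CPM in lsm4, at 4.06, 8.79 and 4.50 CPM in WT C24 and at 24.2, 33.7 and 45.5 CPM in lsm5. HSP17.4 was the only gene of the heat shock list of 12 among the 192, with 0.898 ± 0.592 CPM in WT Col (SD, n = 3), 2.70 ± 0.375 in lsm4, 1.05 ± 0.267 in WT C24 and 5.69 ± 1.68 in lsm5. Of the 10 genes of that list tested, HSP17.4, HSP70 (log2 change 0.89) and HSP18.2 (1.98) were called higher and ROF2 (−0.99) lower in lsm4, and HSP17.4 alone was called, higher, in lsm5. Of the 14 genes of tryptophan, camalexin and glucosinolate metabolism, which include CYP71A13, 7 were called higher in lsm4 and 3 in lsm5. For this list and the heat shock list, the shares of all tested genes called higher were 10.7% in lsm4 and 1.51% in lsm5. The other genes of the group of 11 were the catalase CAT1, the trypsin inhibitor KTI1, osmotin (OSM34), the amidohydrolase IAR3, the hexose transporter MSS1, DTX1 and APR2.

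Smaller groups were 5 genes of autophagy and the vacuole and 4 of fatty acid metabolism. ALPHA-VPE, a protease that matures vacuolar proteins, stood at 1.60, 2.36 and 2.03 CPM in WT Col, at 5.95, 5.62 and 5.54 CPM in lsm4, at 3.29, 5.86 and 3.33 CPM in WT C24 and at 19.9, 21.6 and 26.2 CPM in lsm5. ATG9, ATG18F and ATG18H, which build the autophagosome, had ratios of 1.90, 3.07 and 1.91 in lsm4 and of 1.77, 1.59 and 1.74 in lsm5. PED1, the peroxisomal thiolase of fatty acid breakdown, had 287 ± 10.3 CPM in WT Col (SD, n = 3), 560.5 ± 28.8 in lsm4, 476 ± 31.6 in WT C24 and 700.1 ± 33.5 in lsm5, and ACX2, which feeds the same pathway, had ratios of 2.34 and 1.98. Per kilobase of exon and over the mutant libraries, the most abundant of the 192 were KTI1 at 363 CPM, PED1 at 335 and OSM34 at 195. Next came APR2, iPGAM2 (a phosphoglycerate mutase), CYP71A13, AOX1A, mtHsc70-1, AT5G56350 (a pyruvate kinase) and CYP81D8, from 166 down to 86.3 CPM.

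Tic20-IV, a subunit of the chloroplast import channel, and AT5G04680, an ankyrin repeat protein, complete the 10 genes with the widest gap between mutant and wild-type libraries in CPM by total counts. Tic20-IV stood at 2.55, 3.37 and 2.56 CPM in WT Col, at 9.40, 13.8 and 9.87 CPM in lsm4, at 1.82, 2.45 and 2.04 CPM in WT C24 and at 6.31, 6.37 and 13.4 CPM in lsm5. AT5G04680 had ratios of 3.35 and 3.12. Their changes were of like size in both mutants, unlike those of the genes at the ends of the scale.

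AT1G53260, a gene with no known function, had the largest ratio in lsm5, 10.4, with 0.118, 0.430 and 0.0783 CPM in WT C24 and 2.32, 2.18 and 2.02 CPM in lsm5, and a ratio of 2.67 in lsm4. Its WT C24 levels rest on few reads, and without WT C24 2 the ratio was 22.2. The lsm5 ratio of the other genes moved by over 1.5 times without 1 library only in AT1G24095 (2.94, and 1.92 without lsm5 3) and AT3G05620 (3.92, and 6.51 without WT C24 3). AT2G20720, a pentatricopeptide repeat protein, stood at 2.87, 3.93 and 5.16 CPM in WT Col, at 7.73, 7.56 and 7.36 CPM in lsm4, at 8.001, 7.47 and 6.86 CPM in WT C24 and at 47.2, 41.3 and 63.3 CPM in lsm5. At the other end, UMAMIT11, an amino acid transporter, stood at 14.7, 23.59 and 15.5 CPM in WT Col, at 62.1, 67.2 and 69.2 CPM in lsm4, at 4.24, 4.25 and 4.31 CPM in WT C24 and at 5.77, 5.92 and 7.96 CPM in lsm5. A beta-glucosidase (AT1G33700) and a receptor kinase (AT3G47570) stood beside it in the surplus of lsm4 over lsm5, with ratios of 4.34 and 1.77 and of 4.26 and 1.80. The difference between the mutants in these genes served to pick them and was not tested.

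Some of the 192 are not independent of each other. WNK8 and CPuORF58, GRIK1 and CPuORF61, AT1G71528 and AT1G71530, and IQD13 and AT3G59695 overlap, and WNK8 and CPuORF58 had identical values in every library. Counting each overlapping pair once leaves 188 genes. A further 4 pairs are neighbours with no gene between them, among them ANAC013 and the glycosyl hydrolase AT1G32860, 2750 bases apart on opposite strands, and the receptor kinases AT3G47570 and AT3G47580, 1718 bases apart. The others are AT1G54570, an esterase, with AT1G54575, and AT1G63300, a myosin-related protein, with AT1G63310. In all, 45 of the 192 overlap some other gene of the table, and without strand information their reads cannot be told apart.

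The rule used the CPM of both wild types, and its limit on the lsm4 ratio acts on the WT Col level, so the difference between the wild types is given as a description from which nothing is read. Of the 192 genes, 108 were called different between WT C24 and WT Col, where 41.1% of all 20269 tested genes were. Lower in WT C24 were 67 (21.6% of all genes) and higher 41 (19.5%). Their median log2 difference, WT C24 against WT Col, was −0.34, beside −0.04 over all genes, and 121 lay below 0 and 71 above.

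**Figure D4:**
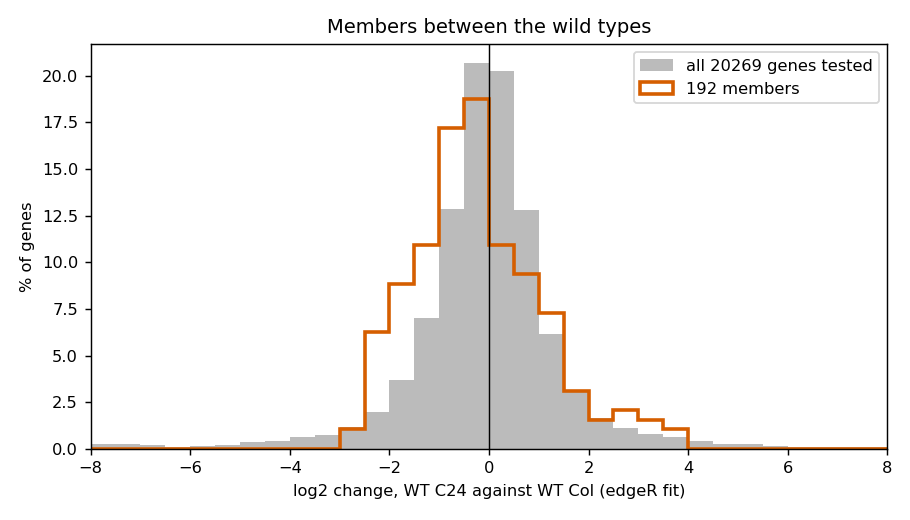
Distribution of the log2 difference between WT C24 and WT Col in the edgeR fit, as a percentage of genes, for all 20269 tested genes (grey) and the 192 (orange line). Of the 192, 121 lie to the left of 0 and 71 to the right, and their median is −0.34.

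Among the genes furthest apart between the wild types were genes of lignans, fatty acids and defence. PRR1, a pinoresinol reductase, stood at 12.1, 12.6 and 16.4 CPM in WT Col and at 2.12, 1.37 and 1.49 CPM in WT C24, a log2 difference of −2.98 ± 0.29 (SE, n = 3). KCS2, which elongates fatty acids for suberin and wax, differed by −2.73 ± 0.28, and CESA7 by −2.04 ± 0.24. In the other direction, KTI1 stood at 20.4, 23.9 and 16.6 CPM in WT Col and at 192, 315 and 280 CPM in WT C24, a difference of 3.81 ± 0.30. MSS1, DTX1, CYP71A13 and CYP81D8 were higher in WT C24 by 3.28, 2.98, 2.77 and 2.77 on the log2 scale. In KTI1, MSS1 and CYP81D8 every lsm4 library was below every WT C24 library. Accession, medium and age cannot be told apart here. AT5G51440, HSP17.4, CYCB1;1 and mtHsc70-1 had log2 differences between the wild types of −0.02 ± 0.42, 0.46 ± 0.55, −0.10 ± 0.30 and −0.21 ± 0.20.

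The signal in introns was measured as the intron count relative to the gene count of the same library. The gene counts are the values that chose the genes, so this signal is not independent of the selection, and an intron could pass the filter on low counts through its mutant libraries alone. The counts over introns and the adjusted p-values of single introns are therefore a description. Nothing is read from the shares, and the p-values are no independent support. In lsm4, 121 introns of 65 of the genes were tested, and 31 were called higher (25.6%) where 17.7% of all 11439 tested introns were. The 2 called lower were in CYP71A13 and AT3G20430, a protein like the RNA export adapter PHAX. In lsm5, 63 introns of 33 genes were tested and 1 was called higher (1.6%), beside 0.517% of all 7151, while 20 had an unadjusted p under 0.05. Without WT C24 2 and lsm5 3 the count was 19, without lsm5 3 alone 5, without WT C24 2 alone 2 and without any other library of that comparison 0. In lsm4 the 33 calls in both directions became 17 without WT Col 2, 19 without lsm4 1 and 19 without lsm4 3.

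The intron called in both mutants is the first from the 5′ end of APR2 (named PRH in the table), numbered 4 because introns were numbered by coordinate. APR2 reduces activated sulfate on the path to cysteine. Its counts were 2, 2 and 0 in WT Col, 179, 73 and 80 in lsm4, 1, 2 and 1 in WT C24 and 54, 40 and 16 in lsm5. The intron was almost empty in all wild-type libraries and held reads in all mutant libraries, while the APR2 gene level was only 1.67 and 1.60 times higher. Its density per base averaged 0.598% of that of the gene in WT Col and 12.9% in lsm4, a relative log2 change of 5.26 ± 0.69 (SE, n = 3, adjusted p = 6.6e-04, edgeR). It averaged 0.431% in WT C24 and 5.95% in lsm5, a change of 3.71 ± 0.65 (adjusted p = 0.040, edgeR). The lsm5 call was lost without WT C24 1, WT C24 3, lsm5 1 or lsm5 2, at adjusted p from 0.106 to 0.189 in edgeR, with the log2 change at 3.27 to 3.74.

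The introns of 4 more genes were called in lsm4 and had an adjusted p under 0.1 in lsm5. They belong to AT3G17770, a dihydroxyacetone kinase, MSL3, a mechanosensitive channel of plastids, ANAC087 and RRC1. The sequences of all 5 are printed, since these introns were the nearest to a call in both mutants, in lower case with the first and last 2 bases in capitals. They were read from RefSeq, TAIR10.1, on the strand of the gene and 5′ to 3′. Across the table, 98.7% of 120457 introns begin with GT and end with AG at the deposited coordinates in this genome (99.3% of the 955 introns of the 192 genes), and so do all 5.
APR2 intron 4, chr1:22977252-22977383, minus strand: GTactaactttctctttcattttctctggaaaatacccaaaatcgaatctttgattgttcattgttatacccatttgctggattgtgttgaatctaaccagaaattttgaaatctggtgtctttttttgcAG
AT3G17770 intron 11, chr3:6084005-6084086, minus strand: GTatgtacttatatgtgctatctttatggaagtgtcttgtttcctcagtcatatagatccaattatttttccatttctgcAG
MSL3 intron 5, chr1:21550161-21550243, minus strand: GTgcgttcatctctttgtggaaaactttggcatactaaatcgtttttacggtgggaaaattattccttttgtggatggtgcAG
ANAC087 intron 3, chr5:6042303-6042537, minus strand: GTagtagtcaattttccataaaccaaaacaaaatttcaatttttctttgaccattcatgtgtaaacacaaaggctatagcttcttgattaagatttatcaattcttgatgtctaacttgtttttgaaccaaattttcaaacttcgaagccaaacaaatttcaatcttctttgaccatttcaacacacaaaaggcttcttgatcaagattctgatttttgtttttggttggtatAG
RRC1 intron 14, chr5:8639186-8639441, minus strand: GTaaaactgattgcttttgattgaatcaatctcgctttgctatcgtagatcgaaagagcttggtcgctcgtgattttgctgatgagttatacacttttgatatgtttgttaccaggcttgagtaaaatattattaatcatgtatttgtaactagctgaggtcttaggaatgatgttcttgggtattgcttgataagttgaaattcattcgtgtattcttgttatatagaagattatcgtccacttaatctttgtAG

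All 5 are short, from 82 to 256 bases, and within the coding range of their genes. In AT3G17770 the counts of intron 11 were 3, 0 and 3 in WT Col, 75, 55 and 50 in lsm4, 0, 5 and 1 in WT C24 and 41, 31 and 38 in lsm5. In ANAC087 those of intron 3 were 0, 3 and 0 in WT Col, 26, 31 and 35 in lsm4, 0, 0 and 2 in WT C24 and 30, 24 and 41 in lsm5. In RRC1, a splicing factor of phytochrome signalling, those of intron 14 were 5, 14 and 4 in WT Col, 115, 71 and 98 in lsm4, 3, 3 and 0 in WT C24 and 59, 44 and 13 in lsm5. No mutant library overlapped its wild type in these introns. MSL3 intron 5 was already dense in the wild types, at 35.4% in WT Col and 19.8% in WT C24, and reached 128% in lsm4 and 105% in lsm5, so that the intron was as dense as the gene itself. The adjusted p in lsm5 was 0.062 for AT3G17770, 0.063 for MSL3, 0.063 for ANAC087 and 0.091 for RRC1 (edgeR). When 1 library was left out it ranged from 0.011 for MSL3 without lsm5 3 to 0.336 for RRC1 without lsm5 1 (edgeR). The lsm4 call of ANAC087 intron 3 was lost without WT Col 3 (adjusted p = 0.090, edgeR) and without lsm4 3 (adjusted p = 0.058, edgeR).

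Other genes described above had introns called higher in lsm4 alone, which does not show that the mutants differ. ANAC013 intron 3 went from 1.76% to 59.2% of the gene's density, ANAC046 intron 2 from 2.33% to 65.1% and MCM5 intron 2 from 8.89% to 54.4%. The WT Col values rest on few reads, with counts of 0, 1 and 0 in ANAC013, 0, 1 and 0 in ANAC046 and 0, 6 and 1 in MCM5. ANAC046 intron 2 stood at 6.60% in WT C24 and 24.4% in lsm5, where it was not called. MCM5 intron 2 stood at 13.9% and 39.4% and was not tested there. In both C24 groups ANAC013 intron 3 held no read, and neither did the annotated stretch of 18 bases just before it. The C24 libraries thus cannot show this intron's signal. AOX1A intron 1 had counts of 0, 1 and 1 in WT Col, 18, 12 and 19 in lsm4, 0, 0 and 0 in WT C24 and 14, 17 and 23 in lsm5. It was called in lsm4 (2.67 ± 0.86, adjusted p = 0.043, edgeR) and had an adjusted p of 0.125 in lsm5. PED1 had 3 introns called in lsm4, and CTL2 and FRA3 had 1 each. CYP71A13 intron 1 fell by 2.38 ± 0.46 on the log2 scale in lsm4 (adjusted p = 0.0043, edgeR), from 27.8% to 5.56%, and stood at 2.498% in WT C24 and 1.62% in lsm5.

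Intron reads made up little of these genes' counts. The median share was 1.13% in WT Col, 2.44% in lsm4, 0.980% in WT C24 and 1.42% in lsm5, beside 1.46%, 2.89%, 1.17% and 1.78% over all tested genes. The highest share for any of the 192 was 27.3%, in lsm4. With intron counts taken off the gene counts, the selection rule gave 177 genes, 176 of them among the 192. Of the annotated alternative splicing bins of these genes, 0 of 24 were called in lsm4 and 0 of 14 in lsm5 (edgeR), beside 0.366% and 0% of all 3549 and 2932 bins, and 2 and 0 of them had an unadjusted p under 0.05. No other tool was run on bins.

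Structure set the 192 only slightly apart. Their median exonic length was 1754 bases beside 1562 for all genes tested in both mutants, and both had a median of 4 introns. Genes without introns made up 9.90% and 16.5%, and the median wild-type level was 5.22 and 6.97 CPM per kilobase. Promoter motifs of known stress pathways were counted on both strands from 250 bases before to 50 after the gene start. The abscisic acid element core (ACGTGG or ACGTGT) was in 25.8% of the 190 genes beside 18.1% of all genes and 21.4% of tested genes, and the G-box (CACGTG), whose letters overlap it, in 9.47% beside 7.21% and 9.55%. The evening element (AAAATATCT) was in 4.74% beside 2.41% and 2.78%, and the heat shock element (GAANNTTC) in 14.7% beside 11.9% and 12.2%. The CAMTA element (CGCGTG) and the GCC-box (GCCGCC) were each in 5.79%, beside 3.53% and 3.54% of all genes. The W-box (TTGACC or TTGACT), the DRE (ACCGAC or GCCGAC) and the telo-box (AAACCCTA) were in 32.1%, 10.5% and 8.42%, beside 31.4%, 9.14% and 8.20%. The order depended on the window: with 150 and 1000 bases before the start the telo-box was in 2.11% and 8.95%, beside 4.64% and 14.95% of all genes, and the G-box in 3.68% and 24.21%, beside 4.63% and 15.07%. The abscisic acid element core did not change side, at 16.8% and 55.8% beside 11.2% and 39.4% of all genes and 14.5% and 43.0% of tested genes. The E2F site (TTTCCCGC) was in MCM5 and AT5G49110 only, 1.05% beside 0.92%, and the TGA element (TGACGTCA) in 1 gene.

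The threshold divides a continuous range. Just inside lay AT3G14360 (a hydrolase), VSR4 (a vacuolar sorting receptor, VSR2;1 in the table) and PED1, each at a smallest ratio of 1.302, and just outside lay AT3G04000, AT5G48240 and RING1B, at 1.299, 1.299 and 1.298. The smallest ratio was under 1.4 for 65 of the 192 and 2 or more for 16, and 150 further genes lay between 1.2 and 1.3. The limiting comparison was lsm5 for 121 genes and lsm4 for 71. Membership depends on scaling by the total count: with TMM-scaled CPM the rule gave 122 genes, of which 90 belong to the 192. After TMM scaling the lowest mutant library was still above the highest wild-type library in lsm4 for all 192 and in lsm5 for 185, and every fitted log2 change was above 0 with that scaling. The highest WT C24 library was WT C24 2 for 84 of the 192 (43.8%), beside 4507 of all 19110 genes tested in both. Its part in the selection was not tested.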

How the data were processed

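RNA-seq of whole Arabidopsis plants was analysed in 4 groups of 3 replicates. The deposited tables give raw counts per gene, intron and splicing bin made by the authors, with both libraries of a replicate in 1 column; how reads were counted, and whether by strand, is not given in the sources used here. A count of 2 was more frequent than 1 in all 12 libraries. Per the submitters' processing notes, TopHat2 2.0.9, edgeR 3.4.2, R 3.0.2 and TAIR10 were used. The authors' deposited comparison tables hold log2 fold changes with p-values and FDR, used here only for which genes they list and for their highest FDR. Another 12 columns of per-sample values, unnamed or repeating a sample's name to the right of an intron table, were left out.

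Genes, introns and bins were tested with edgeR 4.0.16 (R 4.3.3, limma 3.58.1; quasi-likelihood, TMM, filterByExpr with a minimum count of 10, Benjamini-Hochberg adjustment over all features, calls at adjusted p under 0.05). Introns and bins had the gene count of the same library as offset, with at least 10 counts in every library. Intron density is the intron count per base as a percent of the gene count per base of exon. Each mutant was compared with its own wild type, and the wild types with each other, 3 against 3. The fits were run on simulated counts with the same dispersion for every gene and no library standing apart. That run does not check them for libraries that stand apart, as some do here. DESeq2 1.42.0, other scalings, filters and leaving out each library were tried, and tables were made with Python 3.11.15 and pandas 2.3.3.

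The 192 genes, 18 gene lists and 6 marker lists were chosen with earlier results of these data known; the functional groups, the mitochondrial dysfunction motif and the 1000-base window were chosen after the values were seen. A rule, written with those results known, names 57 genes: the 10 with the widest gap between mutant and wild-type libraries, the 10 most abundant per kilobase in the mutants, list members, genes with leading introns, neighbours, genes at the threshold and those with the most unequal ratios in the mutants. Others were named for their functional group or their wild-type difference, after their values were seen. Sequences come from RefSeq (TAIR10.1), whose splice sites match the deposited coordinates.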

Additional observations from a re-analysis of the deposited data

How the results depend on the processing

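The rule is sensitive to its own settings. It gave 122 genes with TMM-scaled CPM, 342 with a ratio of 1.2, 71 with a ratio of 1.5 and 350 without WT C24 2 and lsm5 3, an alternative added after seeing the data. Leaving out single libraries gave 203 to 257, and counting without intron reads 177. Of the 192, 90 to 150 were called in lsm4 when 1 library was left out, and 3 to 137 in lsm5. DESeq2 called 163 in lsm4 and 123 in lsm5, and leaving out WT C24 2 and lsm5 3 gave 187 in lsm5. Leaving out WT Col 1 and lsm4 2 gave 176 in lsm4, 266 genes by the rule and 42 introns. The log2 changes of all 192 were above 0 in the main fits, and those of the genes followed singly stayed so under every setting run. For the wild types the count stayed at 82 to 113. Of the introns, 33 were called in lsm4 and 1 in lsm5. With a mean count of at least 30, where fewer introns are tested, these were 10 and 0, and without the gene count as offset 87 and 9, which then also count the gene's own change. Leaving out 1 library gave 17 to 38 and 0 to 5, and leaving out WT C24 2 and lsm5 3 gave 19 in lsm5. For bins, the fit without offset called 4 in lsm4. Apart from these constructions, the cause was not tested. With the replicate number as a block, 114 genes were called in lsm4, 114 in lsm5 and 106 between the wild types, and 26 and 7 introns. Whether the numbers of the sample titles pair the libraries is not known. The deviations of same-numbered libraries correlated at −0.392, −0.168 and 0.489 in the lsm4 comparison and at −0.345, 0.615 and 0.561 in that of lsm5. With 3 libraries per group such values cannot decide it. By the tags of the columns only 2 pairs in each comparison match, at 0.167 and 0.489 in lsm4 and −0.345 and 0.615 in lsm5, and no fit used them as a block. The 5 printed introns hold at most 15 counts in any wild-type library. No called change of the genes and introns followed through these settings reversed in direction. For gene levels in the mutants the rule had set the sign. Some motif shares, among them those of the telo-box and the G-box, changed side against all genes with the window.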
